A study of Mus musculus with 6 samples.

Results

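The nuclear genes for subunits of mitochondrial respiratory chain complexes I to IV were followed through culture activation and drug treatment of mouse hepatic stellate cells. The group holds the genes whose only platform symbol begins with Ndufa, Ndufb, Ndufc, Ndufs, Ndufv, Sdh, Uqcr or Cox4 to Cox8 and whose mean log2 signal over the 6 arrays was 5 or more. Assembly factors (Ndufaf and Sdhaf genes) were left out. This gave 58 genes of 15526 tested, all of which passed the filter on dim genes. There were 32 for complex I, 4 for complex II, 7 for complex III and 13 for complex IV, with Ndufa4 counted in complex IV. Ndufa4l2 and Cox7a2l share a prefix with the subunits and were kept apart as members of no complex. The members were thus chosen by name and by mean signal, and that mean is described here without a test. Just inside the limit lay Cox7a1, with a mean log2 signal of 5.09, and Cox6b2 with 5.11. Just outside lay Cox7c at 4.97, then Cox8b at 4.38, Cox8c at 3.94, Uqcrh-ps1 at 3.11 and Cox7b2 at 2.43.

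Hepatic stellate cells are liver pericytes that store vitamin A and become collagen-producing myofibroblasts in culture or injury. The cells came from young mice of 8 to 11 weeks or old mice of 6 to 9 months, with 5 mice pooled for a sample. The labels name neither strain, genotype nor sex. At each age there were 3 states. Quiescent cells came from normal liver and had been plated for 12 h. Vehicle cells had been kept on uncoated plastic for more than 20 days, which activates them, and received the solvent dimethyl sulfoxide. PRI-724 cells had been activated in the same way and received 10 µM C-82, the active form of PRI-724, which keeps beta-catenin from its coactivator CBP. The time of exposure is not given in the labels. With 1 array for each age and state, the spread within a group is unknown, and the number of arrays limits the precision.

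The respiratory chain passes electrons from NADH (through complex I) or succinate (through complex II) to ubiquinone, then through complex III and cytochrome c to complex IV, where oxygen is reduced. Complexes I, III and IV pump protons, and ATP synthase uses the gradient. Most subunits are encoded in the nucleus, and a few core subunits of complexes I, III and IV in mitochondrial DNA. The mitochondrially encoded subunits were not analysed here, since 0 of 13 were found among the named probe sets.

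Nuclear respiratory factor 1 (NRF1) and the ETS factor GABP are known regulators of many of these genes, so the promoters were searched for their motifs. RefSeq promoters of GRCm38.p6 were found for 47 of the 58 genes, and the 250 bases before the start site were searched on both strands. Searched were the NRF1 consensus palindrome, with any base at its middle position, and the letters CCGGAAG for ETS factors, AAGATGGCG for YY1, AAGGTCA for ERR and TGACGTCA for the cyclic AMP response element (CRE). Matches of different motifs overlapped in 0 member promoters. Shown are Ndufv3 and Ndufa3, complex I genes that rose with activation, and 3 promoters with NRF1 letters: Ndufa11 of complex I, Sdha of complex II and Cox6a1 of complex IV. Capitals mark motif matches, on either strand, and each sequence runs 5′ to 3′ towards the gene.
Ndufv3, chr17:31519865-31520114, plus strand: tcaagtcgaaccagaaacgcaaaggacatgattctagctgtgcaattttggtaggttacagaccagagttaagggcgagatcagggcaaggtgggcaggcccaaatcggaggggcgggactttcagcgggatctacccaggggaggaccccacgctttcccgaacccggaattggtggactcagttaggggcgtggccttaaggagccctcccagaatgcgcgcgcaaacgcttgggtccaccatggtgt
Ndufa3, chr7:3617123-3617372, plus strand: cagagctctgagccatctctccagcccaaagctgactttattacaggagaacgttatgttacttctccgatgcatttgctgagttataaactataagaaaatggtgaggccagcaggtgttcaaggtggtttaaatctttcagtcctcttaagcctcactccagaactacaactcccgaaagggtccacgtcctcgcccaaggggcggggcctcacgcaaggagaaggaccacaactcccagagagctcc
Ndufa11, chr17:56717512-56717761, plus strand: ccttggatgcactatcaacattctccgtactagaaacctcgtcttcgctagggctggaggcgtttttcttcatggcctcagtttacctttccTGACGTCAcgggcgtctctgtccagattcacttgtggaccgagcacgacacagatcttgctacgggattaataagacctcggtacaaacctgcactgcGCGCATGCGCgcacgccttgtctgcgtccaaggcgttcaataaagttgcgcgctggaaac
Sdha, chr13:74350241-74350490, minus strand: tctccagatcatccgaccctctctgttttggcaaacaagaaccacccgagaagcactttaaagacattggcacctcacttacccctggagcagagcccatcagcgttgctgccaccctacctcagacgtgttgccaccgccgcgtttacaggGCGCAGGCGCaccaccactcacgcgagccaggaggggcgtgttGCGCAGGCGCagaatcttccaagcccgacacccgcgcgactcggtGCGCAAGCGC
Cox6a1, chr5:115348959-115349208, minus strand: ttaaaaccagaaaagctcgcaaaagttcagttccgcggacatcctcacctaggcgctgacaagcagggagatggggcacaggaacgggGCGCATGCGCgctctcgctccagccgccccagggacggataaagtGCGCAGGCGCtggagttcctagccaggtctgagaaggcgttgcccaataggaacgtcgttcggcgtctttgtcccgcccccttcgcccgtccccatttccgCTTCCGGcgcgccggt
The Sdha window held 3 NRF1 matches, Cox6a1 held 2 with 1 ETS match near its start, and Ndufa11 held 1 NRF1 and 1 CRE match. No motif letters lay in the windows of Ndufv3 and Ndufa3. Over the members the NRF1 letters were in 7 of 47 promoters (14.9%), against 7.68% of the 12055 tested genes with a promoter. ETS letters were in 8 (17.0%, against 12.8%), CRE letters in 3 (6.38%, against 2.68%), ERR letters in 1 (2.13%, against 3.67%) and YY1 letters in 0 (against 1.11%). Of the members at least 1.5-fold higher with activation in both ages, 2 of 21 held NRF1 letters (9.52%), and of the other members 5 of 26 did (19.2%). A match describes letters only.

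The array of young PRI-724 cells had a narrower spread of signals, with an interquartile range over the tested genes of 1.71 log2 units where the other arrays had 2.11 to 2.43. The mean log2 signal of the 10 stellate markers lay between 8.06 and 8.99 on every array. Single stellate markers were dim on some arrays, such as Lrat at 5.57 in young PRI-724 cells and Ngfr at 5.74 in young vehicle cells. Markers of other liver cells gave signal as well. The mean over 10 sinusoidal endothelial markers was 9.95 and 8.66 on the young and old quiescent arrays, where the stellate mean was 8.15 and 8.10. It was above the stellate mean on both vehicle arrays too, and below it on both PRI-724 arrays. The mean over 9 hepatocyte markers was 9.38 on the old quiescent array, against 5.13 to 7.14 on the other 5. The mean over 10 macrophage markers lay between 8.56 and 9.55 on the quiescent and vehicle arrays and at 5.90 and 6.14 on the young and old PRI-724 arrays. In bulk samples, fewer cells of a type and less RNA per cell cannot be told apart.

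Taken array by array, the subunit genes were lowest in young quiescent cells. The median log2 signal of the 58 genes was 6.95 in young quiescent cells, 8.04 in young vehicle cells and 7.18 in young PRI-724 cells. In old cells it was 7.27, 7.88 and 7.79 in the same order. The young quiescent array held the lowest value of 37 of the 58 genes. The same array held the lowest value of 1066 of the 3882 brightest tested genes (the brightest 25%), which hold 28 of the members. The highest value was on the young vehicle array for 22 members, and on the old vehicle and old PRI-724 arrays for 16 each.

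**Figure D1:**
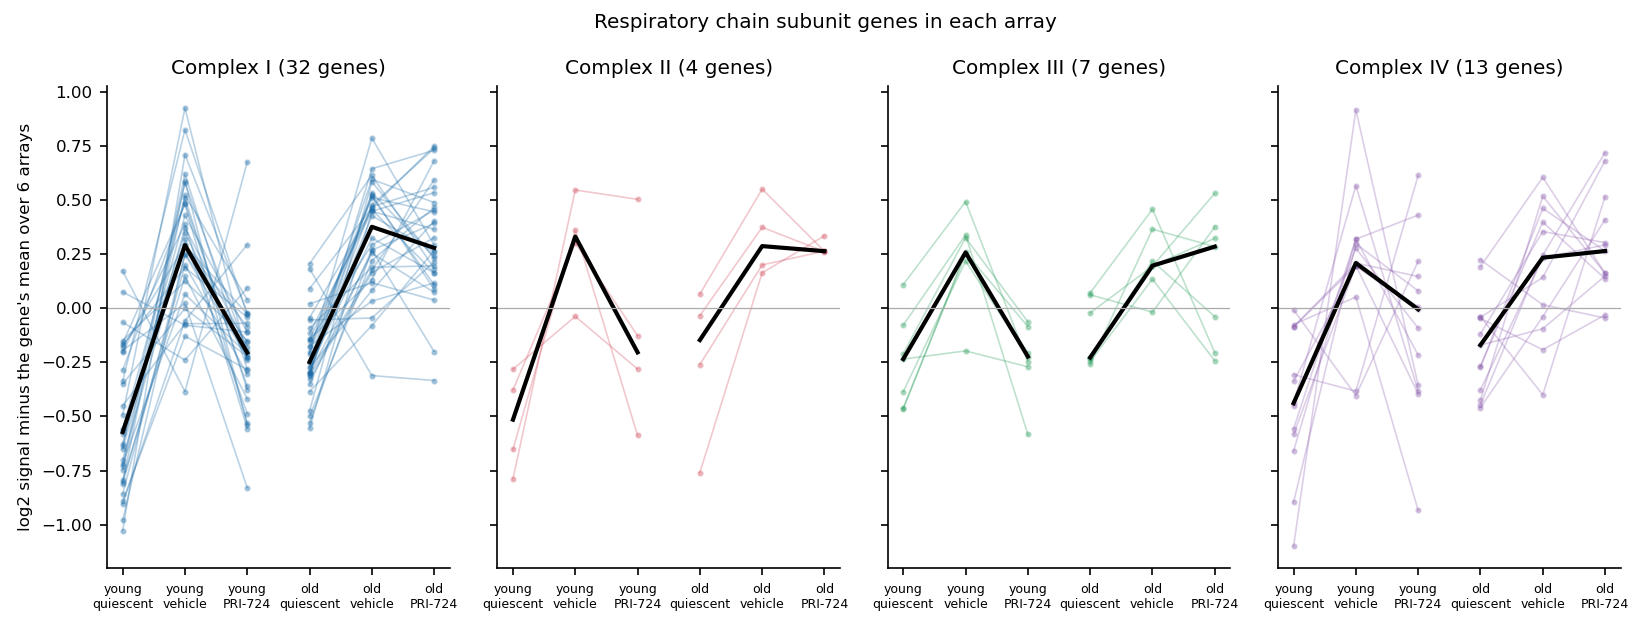
Log2 signal of each subunit gene minus its own mean over the 6 arrays, by complex, with young arrays on the left and old arrays on the right of each panel. Thin lines are genes and the black line is the median of the complex. In each complex the median is higher on the vehicle array than on the quiescent array at both ages, and the young PRI-724 median lies well below the young vehicle median.

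Culture activation was measured as vehicle minus quiescent cells. Subunit genes of all 4 complexes were mostly higher in the activated cells: 50 of the 58 genes (86.2%) were higher in both the young and the old pair, where 40.7% of all tested genes were, and 49.9% of the brightest 25%. At least 1.5-fold higher in both pairs were 22 members (37.9%), against 11.4% of all tested genes and 16.1% of the brightest, and 0 were as much lower, against 4.14%. Both vehicle arrays lay above both quiescent arrays for 44 members (75.9%), against 33% of all tested genes. Gene by gene the calls were few. With limma, 3 members rose at a Benjamini-Hochberg adjusted p under 0.05 and 0 fell, which is 5.17% of the members and near the 4.61% of all tested genes that rose. At an unadjusted p under 0.05 there were 32 higher members (55.2%, against 15.7%) and 0 lower (against 6.73%). The 50, the 44 and the 32 each included Ndufa4l2. It met the mean signal of 5 only through the young vehicle array and so supports nothing in these counts. The median difference of the members was 0.62 log2 units, 0.77 in young and 0.48 in old cells, against 0.04 for all tested genes and 0.16 for the brightest 25%. The p-values set a difference (n = 2 pairs) against the disagreement between the ages over all 3 states, moderated across genes.

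Array scaling bears on the size of this difference. After cyclic loess or quantile normalization of the tested genes, the fitted median of the members was 0.41 and 0.43. Under each 46 members (79.3%) were higher in both pairs, against 34.1% and 33.1% of tested genes and 36.5% and 37.7% of the brightest. With the array medians of the tested genes set equal, the member median was 0.37, beside -0.21 for all tested genes. Then 43 members (74.1%) were higher in both pairs, against 25.3% of tested genes and 33.4% of the brightest. At least 1.5-fold higher in both pairs were 10 members (17.2%) under each of these scalings. In the same order the share was 7.92%, 7.66% and 6.3% of all tested genes and 10.5%, 10.8% and 9.17% of the brightest. None of the 3 calls remained under either scaling, with adjusted p-values of 0.055 (loess) and 0.070 (quantile) for Ndufv3.

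The genes that rose were Ndufv3, Ndufa3 and Sdhc. Ndufv3 encodes a small accessory subunit of the NADH-oxidising flavoprotein part of complex I (probe set 17335865). Its log2 signal was 5.23 in young quiescent, 6.96 in young vehicle and 6.23 in young PRI-724 cells, and 5.78, 6.84 and 6.49 in the old cells. Both vehicle arrays lay above the other 4. The fitted rise was 1.40 ± 0.27 log2 units (SE, n = 2 pairs), or 2.64-fold (adjusted p = 0.020). Ndufa3, another accessory subunit of complex I (probe set 17473171), stood at 8.55, 9.57 and 8.76 in young quiescent, vehicle and PRI-724 cells and at 9.04, 10.03 and 9.54 in the old. It rose by 1.01 ± 0.25 (2.01-fold, adjusted p = 0.043), with nearly equal differences at both ages (1.02 in young cells). Sdhc, a membrane anchor of complex II that holds part of its ubiquinone site (probe set 17229629), stood at 7.54, 8.87 and 8.83 in the young and 7.56, 8.49 and 8.66 in the old. It rose by 1.13 ± 0.27 (2.19-fold, adjusted p = 0.041), and its quiescent arrays lay below all 4 activated ones. The calls rested on few arrays. Without the young vehicle array the adjusted p-values of Ndufv3, Ndufa3 and Sdhc were 0.26, 0.43 and 0.52, and without the young quiescent array 0.14, 0.14 and 0.34. Without either PRI-724 array, which enter the shared spread, they were between 0.057 and 0.060. Ndufa3 and Sdhc also missed the threshold without the old quiescent array (0.28 and 0.14) or the old vehicle array (0.11 and 0.081), while Ndufv3 kept it (0.0091 and 0.0090). A lone array left in a state is assumed to vary like the others.

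**Figure D2:**
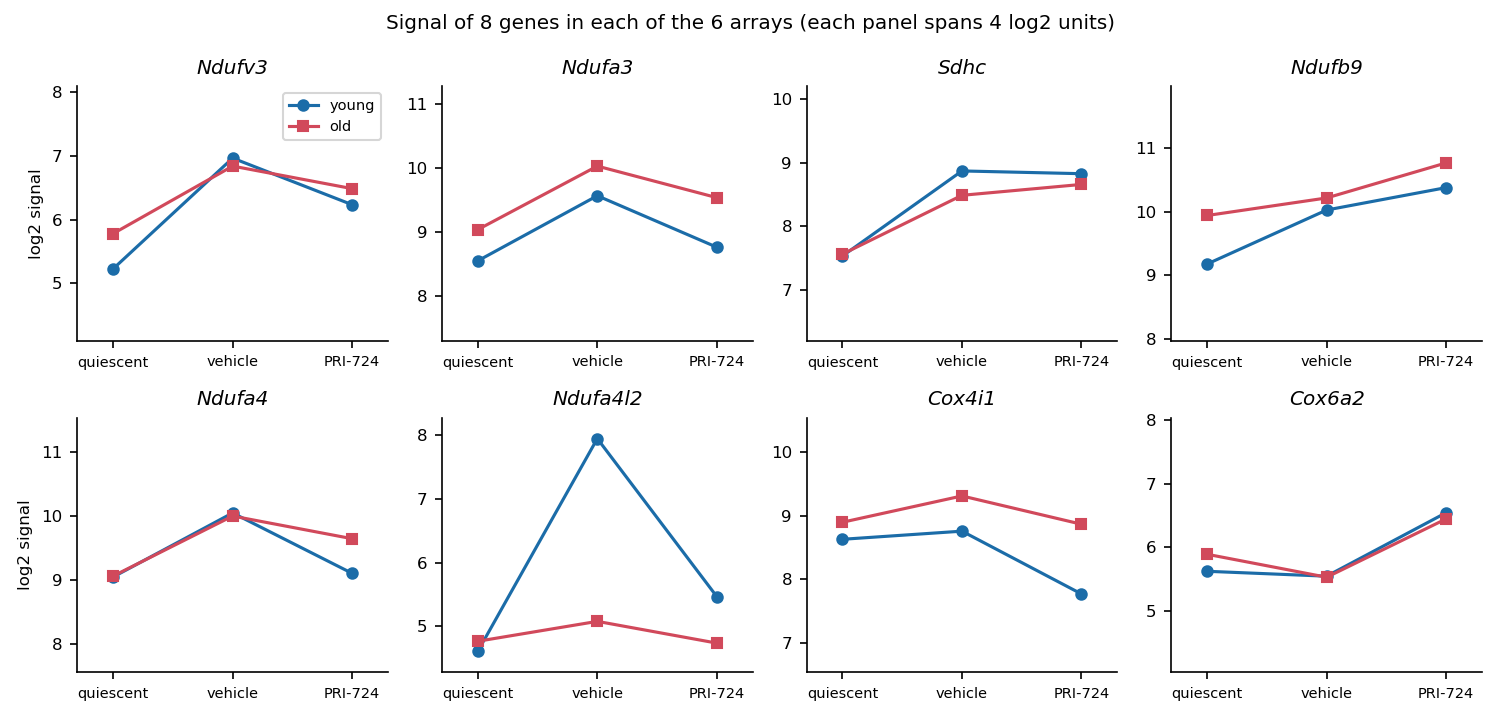
Log2 signal of 8 genes in quiescent, vehicle and PRI-724 cells, young (blue circles) and old (red squares), 1 array per point, with each panel spanning 4 log2 units. Ndufv3, Ndufa3 and Ndufa4 peak in vehicle cells at both ages, Sdhc and Ndufb9 stay high in PRI-724 cells, and Ndufa4l2 is high on the young vehicle array alone (7.95).

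With activation the median difference was 0.72 for complex I, 0.66 for complex II, 0.40 for complex III and 0.57 for complex IV, and the complexes were not tested against each other. In the same order it was 0.49, 0.48, 0.32 and 0.42 after cyclic loess, 0.48, 0.49, 0.24 and 0.44 after quantile normalization, and 0.472, 0.413, 0.155 and 0.325 with the array medians set equal. Complex III was thus lowest under each, while complex II stood above complex I after quantile normalization. In complex I 29 of 32 genes were higher in both pairs. The median was 0.87 over the 26 accessory genes and 0.50 over the 6 core genes measured (Ndufv1, Ndufv2, Ndufs1, Ndufs3, Ndufs7 and Ndufs8), all of the peripheral arm. For the core genes it was 0.31 after cyclic loess and 0.25 with the array medians set equal, beside 0.64 and 0.63 for the accessory genes. The difference between core and accessory genes was not tested. After Ndufv3, the next largest was Ndufa9, an accessory subunit at the base of the peripheral arm, higher by 1.22 in young cells (1.11 ± 0.29, adjusted p = 0.054). Among core genes, Ndufv1, which binds NADH and flavin, differed by -0.17 in young and 0.36 in old cells, on opposite sides of 0. Ndufv2, its partner, was higher by 0.64 and 0.60, and Ndufs1, the largest subunit of the arm, by 0.77 and 0.49. The lowest of complex I was Ndufs5, lower by 0.56 and 0.49 in young and old cells, with a fitted difference of -0.53 ± 0.31 (adjusted p = 0.36). Ndufab1, the mitochondrial acyl carrier protein, differed by -0.15 and 0.01.

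Some probe sets name a subunit gene together with another gene and so held no member. There were 10 of these, and 10 were higher in both pairs with activation. Of the 2 sets for Ndufs6 and Ndufs6b, 1 was higher by 1.92 and 1.26 and the other by 0.85 and 0.79. The 2 sets for Cox6c and Gm6265 were higher by 1.58 and 1.13 and by 0.61 and 0.36. The set shared by Ndufs5 and its pseudogene Ndufs5-ps was higher by 0.64 and 0.35, opposite in direction to the probe set that names Ndufs5 alone. The level of Ndufs5 is therefore uncertain. In 5 members a second, dimmer probe set was measured, and that of Cox7b differed by 1.42 in young and -0.53 in old cells.

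**Figure D3:**
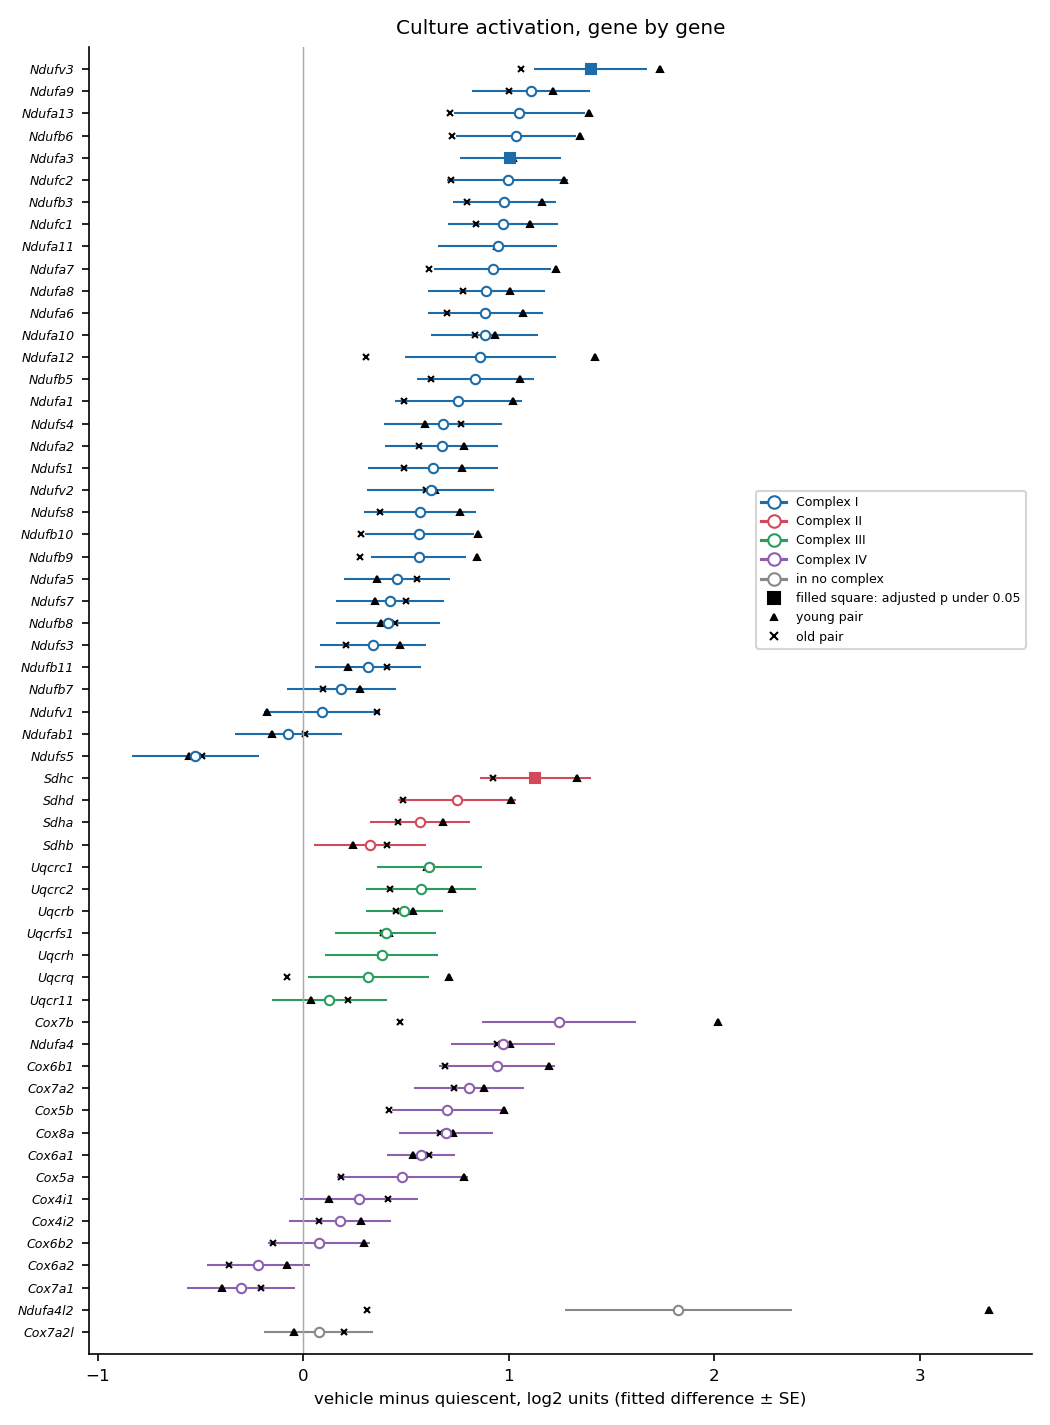
Vehicle minus quiescent difference of each of the 58 genes in log2 units, by complex. Markers with bars are the fitted difference ± SE from limma over both ages, triangles the young pair and crosses the old pair. Filled squares mark Ndufv3, Ndufa3 and Sdhc, the genes past the threshold, and Ndufa4l2 shows the widest gap between the ages (3.34 and 0.31).

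In complex II, the succinate dehydrogenase shared with the citric acid cycle, 4 of 4 genes were higher in both pairs, with a median of 0.66. Sdhd, the other membrane anchor, was higher by 1.01 in young and 0.48 in old cells (0.75 ± 0.29, adjusted p = 0.16). The flavin-binding catalytic subunit Sdha was higher by 0.68 and 0.46 (0.57 ± 0.24), and the iron-sulphur subunit Sdhb by 0.24 and 0.41 (0.33 ± 0.27). Of these 4 genes Sdhc alone passed the threshold.

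In complex III, which passes electrons to cytochrome c, 6 of 7 genes were higher in both pairs and 0 were called. The core proteins Uqcrc1 and Uqcrc2 were highest: Uqcrc1 by 0.60 and 0.62 in young and old cells (0.61 ± 0.25, adjusted p = 0.19) and Uqcrc2 by 0.72 and 0.42 (0.57 ± 0.27). The small subunit gene Uqcr11 was higher by 0.04 and 0.22. Uqcrq, another small subunit gene, differed by 0.71 in young and -0.08 in old cells. The Rieske iron-sulphur protein Uqcrfs1 was higher by 0.42 and 0.39 (0.40 ± 0.25).

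Complex IV, cytochrome c oxidase, had a median of 0.57, with 10 of 13 genes higher in both pairs and 0 called. Cox7b, a small subunit needed for assembly of the complex, had the largest fitted difference, 1.24 ± 0.37 (adjusted p = 0.083), with 2.02 in young and 0.47 in old cells. Its log2 signal was 6.09, 8.11 and 6.83 in young quiescent, vehicle and PRI-724 cells, and 7.07, 7.54 and 7.49 in old cells. The young quiescent array was the lowest and the young vehicle array the highest of the 6. Leaving out the old quiescent array brought Cox7b past the threshold (adjusted p = 0.021), as did leaving out the old vehicle array (0.0046), and its adjusted p was 0.99 without the young vehicle array. Ndufa4, named for complex I but a subunit of complex IV, stood at 9.04, 10.05 and 9.10 in the young and 9.06, 10.00 and 9.65 in the old. The difference was alike at both ages, 0.94 in old cells (0.97 ± 0.25, adjusted p = 0.055).

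Several complex IV subunits have forms that belong to heart and skeletal muscle or to other special tissues beside a broad form. In each measured pair of Cox forms the broad form had, in the deposited values, a larger positive difference with activation than its restricted partner. These gaps were not tested. Ndufa4 and its relative Ndufa4l2 went the other way, at 0.97 and 1.82, the latter through the young vehicle array. The paired restricted Cox forms were also dim, with mean log2 signals of 5.09 to 5.93, against 8.33 to 11.49 for their broad partners. Over the brightest tested genes the median difference was 0.16, against 0.04 for all tested genes. The part of signal level in the gaps was not tested. Cox6a1 was higher by 0.57 ± 0.17 (0.53 and 0.61 in young and old cells), while its muscle form Cox6a2 differed by -0.22 ± 0.25. Cox7a2 was higher by 0.81 ± 0.27, and the muscle form Cox7a1 differed by -0.30 ± 0.26. Cox6b1 was higher by 0.94 ± 0.28, and the testis form Cox6b2 by 0.07 ± 0.25. Cox4i1 was higher by 0.27 ± 0.29 and Cox4i2, the form known from lung and from low oxygen, by 0.18 ± 0.25, so this pair differed little. Cox8a was higher by 0.70 ± 0.23. The restricted forms Cox8b, Cox8c and Cox7b2 lay under the mean signal of 5 and under the filter, and had no test. None of the differences in these pairs of forms passed the threshold.

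Ndufa4l2, a relative of Ndufa4 known as a target of the hypoxia-inducible factor HIF-1, differed most between the ages. Its log2 signal was 4.61 in young quiescent, 7.95 in young vehicle and 5.47 in young PRI-724 cells. In old cells it was 4.77, 5.08 and 4.74. The young vehicle array thus stood alone, with a vehicle minus quiescent difference of 3.34 in young and 0.31 in old cells. It was the 1 member that met the mean signal of 5 only through this array, with a mean of 4.93 over the other 5, so its differences are given as a description without a test. The fitted activation difference was 1.82 over both ages, and 0.53 without the young vehicle array. The difference between the ages could not be tested with 1 array per group. Cox7a2l, which bridges complexes III and IV in supercomplexes, differed by -0.05 and 0.20.

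Hepatocyte markers, from cells rich in mitochondria, moved the other way from the subunit genes: 9 of 9 were lower in vehicle than in quiescent cells at both ages, and 3 fell. The mean of these markers was 6.43 on the young and 9.38 on the old quiescent array, and 5.13 and 6.87 on the vehicle arrays. The part of hepatocyte RNA in the subunit differences was not tested. Other markers moved with the subunit genes. Myofibroblast markers were higher in 6 of 6 genes, and 4 rose. Mesothelial markers were higher at both ages in 5 of 5 genes, with a median of 0.81, and 1 rose, Upk1b by 2.48 ± 0.28 (limma, adjusted p = 0.0041). Their mean was 5.85 and 5.71 on the young and old quiescent arrays and 6.77 and 6.75 on the vehicle arrays. Of 10 stellate markers 5 rose and 1 fell. The part of these cell types was likewise not tested.

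PRI-724 against vehicle asked what the drug did to activated cells. None of the 58 members passed the threshold, where 0.271% of tested genes rose and 1.93% fell. At an unadjusted p under 0.05, 1 member was higher and 9 were lower, against 4.34% and 11.1% of tested genes. The 9 included Ndufa4l2, which was chosen only through the young vehicle array and so supports nothing there. The medians of the ages were apart, a difference that was not tested. In young cells 51 of 58 members were lower with PRI-724, with a median of -0.45, and in old cells 30 were lower, with a median of -0.04. The brightest 25% of tested genes had medians of -0.42 in young and -0.00 in old cells, close to those of the members. After cyclic loess the member medians were -0.10 and -0.03, and after quantile normalization -0.01 and -0.00. The fitted member median over both ages was -0.20 as deposited, -0.04 after loess, 0.03 after quantile normalization and 0.001 with the array medians set equal, so its sign turned with the scaling. The bright genes as a whole thus had the young shift too, on the array with the narrow range, and its size depended on the scaling.

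**Figure D4:**
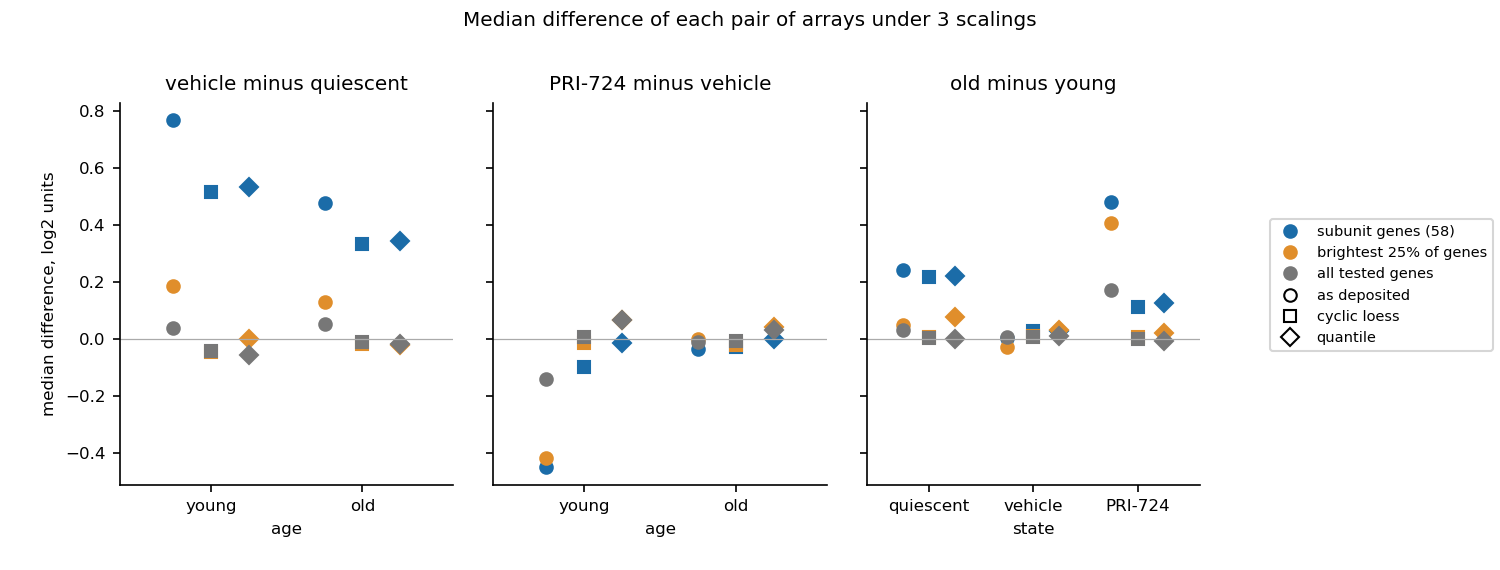
Median difference of single pairs of arrays, in log2 units, for the 58 subunit genes (blue), the brightest 25% of tested genes (orange) and all tested genes (grey). Values are as deposited (circles), after cyclic loess (squares) and after quantile normalization (diamonds). The activation medians of the subunit genes stay above those of both backgrounds under each scaling, while the young PRI-724 minus vehicle median moves from -0.45 to -0.10 and -0.01.

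By complex, the median PRI-724 minus vehicle differences in young and old cells were -0.52 and -0.01 for complex I, -0.34 and -0.02 for complex II, -0.44 and -0.08 for complex III, and -0.22 and 0.06 for complex IV. The fitted median of complex III stayed below 0 under each scaling (-0.26 as deposited, -0.03 after quantile normalization), while those of complexes I, II and IV were above 0 under at least 1 scaling. Both PRI-724 arrays lay below both vehicle arrays for 21 members, where 26.3% of tested genes did, and above both for 4 members, against 18.2%. In both pairs 28 of the 58 members were lower, against 35% of tested genes and 1839 of the 3882 brightest. The 28 included Ndufa4l2, which was chosen only through the young vehicle array and so supports nothing there. After cyclic loess 24 members were lower in both pairs, beside 5083 of the 15526 tested genes and 1502 of the 3882 brightest. After quantile normalization 20 members were, beside 4334 and 1233. The 2 lowest of complex I were Ndufs4, which is needed late in assembly of complex I, at -0.94 in young and -0.41 in old cells (-0.68 ± 0.29), and Ndufb3 of the membrane arm, at -0.85 and -0.47 (-0.66 ± 0.25). In complex II, Sdhd was lowest (-0.62 ± 0.29), followed by Sdha (-0.18 ± 0.24), while Sdhb (-0.18 ± 0.27) and Sdhc (0.06 ± 0.27) were highest. In complex III the lowest was Uqcrfs1, the Rieske protein. Its log2 signal was 5.74, 6.16 and 5.23 in young quiescent, vehicle and PRI-724 cells and 5.89, 6.27 and 5.61 in the old. Both PRI-724 arrays lay below the other 4, with a difference of -0.79 ± 0.25 from vehicle (adjusted p = 0.16), at -0.92 and -0.66 in young and old cells. It was the 1 member at least 1.5-fold lower in both pairs, where 6.03% of tested genes were. The hinge protein gene Uqcrh differed by -0.56 ± 0.27, while Uqcrq (-0.03 ± 0.29) and Uqcr11 (0.13 ± 0.28) were the highest of complex III.

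In complex IV the fitted differences of the broad forms were -0.71 for Cox4i1, -0.07 for Cox6a1, -0.37 for Cox7a2 and 0.13 for Cox6b1. Their restricted partners had 0.03 for Cox4i2, 0.96 for Cox6a2, 0.28 for Cox7a1 and 0.05 for Cox6b2. Cox4i1, the broad form of a regulatory subunit, stood at 8.63, 8.76 and 7.77 in young quiescent, vehicle and PRI-724 cells and at 8.90, 9.31 and 8.87 in the old. PRI-724 arrays were lowest at each age, and the difference from vehicle was -0.71 ± 0.29 (adjusted p = 0.27). Cox7b followed at -0.66 ± 0.37. Cox6a2, the muscle form, was the member with the largest positive difference in the deposited values. Its log2 signal was 5.62, 5.55 and 6.54 in the young and 5.89, 5.53 and 6.45 in the old, so both PRI-724 arrays lay above the other 4. The difference from vehicle was 0.96 ± 0.25 (0.92 in old cells, adjusted p = 0.095). It was the 1 member at least 1.5-fold higher in both pairs, against 1.73% of tested genes. Next in complex IV were Cox5b (0.28 ± 0.27) and the muscle form Cox7a1 (0.28 ± 0.26). Of 6 muscle and brown fat markers, 2 were bright enough to be tested: the creatine kinase gene Ckm differed by 1.03 in young and 0.06 in old cells, and the troponin gene Tnnt2 by -0.10 and 0.10. The highest of complex I were Ndufs5 (0.52 ± 0.31, with 1.06 in young and -0.02 in old cells) and Ndufb9 (0.45 ± 0.23). The brighter set shared by Ndufs5 and Ndufs5-ps differed by -0.50 and -0.16, so the Ndufs5 difference is uncertain. Ndufa4l2 differed by -2.48 in young and -0.34 in old cells, and by -0.12 in the fit without the young vehicle array.

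Markers of several cell types moved in this comparison. Of 10 macrophage markers 8 fell, and of 10 sinusoidal endothelial markers 10 fell. The mean over the endothelial markers was 8.66 to 9.95 on the quiescent and vehicle arrays and 6.22 and 7.09 on the young and old PRI-724 arrays. Of 10 stellate markers 9 had a negative difference and 1 fell, and of 6 myofibroblast markers 6 had a negative difference (median -1.40) and 0 were called. Of 9 hepatocyte markers 9 had a positive difference (median 0.58) and 0 were called, and the 5 mesothelial markers had a median of -0.03 with 0 called. The part of these cell types in the subunit differences was not tested.

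PRI-724 cells were also set against quiescent cells, a comparison that shares its arrays with the other 2. The subunit genes remained above quiescent cells for the most part. Of the 58 members 44 were higher in both pairs (75.9%, against 30.8% of tested genes), and 9 were at least 1.5-fold higher in both (15.5%, against 5.33% of tested genes and 8.32% of the brightest 25%), with 0 as much lower (against 4.37%). Both PRI-724 arrays lay above both quiescent arrays for 30 members, where 19.6% of tested genes did. Below both lay 2 members, against 18%. With limma 2 members rose and 0 fell, 3.45% of the members, against 1.28% of tested genes that rose and 2.43% that fell. At an unadjusted p under 0.05, 14 were higher, against 8.22%. The median difference was 0.40, with 0.26 in young and 0.54 in old cells. The brightest 25% of tested genes had medians of -0.19 and 0.14. After cyclic loess the member medians were 0.38 in young and 0.35 in old cells, and after quantile normalization 0.50 and 0.41. The order of the ages thus turned with the scaling. By complex the fitted median was 0.45 for complex I, 0.27 for II, 0.26 for III and 0.44 for IV. Cell type markers moved too. Of 10 macrophage markers 10 fell (median -2.98), and of 10 sinusoidal endothelial markers 8 fell (median -2.72). Of 9 hepatocyte markers 9 were lower (median -1.04) and 1 fell. Of 6 myofibroblast markers 6 were higher (median 1.42) and 3 rose, and of 5 mesothelial markers 5 were higher and 1 rose. Of 10 stellate markers 1 rose and 1 fell. The part of these cell types was not tested.

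The members that rose were Ndufb9 and Sdhc. Ndufb9, an accessory subunit of the membrane arm of complex I (probe set 17311796), stood at 9.18, 10.02 and 10.38 in young quiescent, vehicle and PRI-724 cells and at 9.94, 10.21 and 10.76 in the old. The order of the states was the same at both ages. It rose by 1.01 ± 0.23 over quiescent cells (adjusted p = 0.042), without passing the threshold in the other comparisons. Sdhc rose by 1.19 ± 0.27 (adjusted p = 0.042), and its PRI-724 minus vehicle difference was -0.04 in young and 0.17 in old cells. Cox6b1 was higher by 1.07 ± 0.28 (adjusted p = 0.074) and Cox5b by 0.98 ± 0.27 (adjusted p = 0.084). Without the young quiescent array, the fitted difference of Ndufb9 was 0.78 (adjusted p = 0.35) and that of Sdhc 1.04 (adjusted p = 0.48). Both also missed the threshold without the young PRI-724 array (0.22 and 0.17) or the old PRI-724 array (0.18 and 0.14), and Sdhc without the old quiescent array (0.11).

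The position of PRI-724 cells between the other states differed with age. In young cells 40 of 58 members had their PRI-724 value between quiescent and vehicle, and 11 had it below both. In old cells 23 lay between, and 28 lay above both. This difference between the ages was not tested, and the young PRI-724 array is the one with the narrow range. The same counts were not made over all tested genes. Among the 3882 brightest genes the young PRI-724 array held the lowest value of 1644. Their PRI-724 minus vehicle medians were -0.42 in young and -0.001 in old cells, so the bright genes had a shift with age too.

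Old against young cells were compared over the 3 states. With limma 0 members passed the threshold, where 0.264% of tested genes rose and 0.251% fell. At an unadjusted p under 0.05, 11 members were higher in old cells and 1 was lower, against 7.16% and 3.24%. The 1 lower member was Ndufa4l2, which was chosen only through the young vehicle array, so its p-value supports nothing. The median difference was 0.21. By state it was 0.24 in quiescent cells, with 46 of 58 members higher in old cells, 0.00 in vehicle cells, with 29 higher, and 0.48 in PRI-724 cells, with 50 higher. The brightest 25% of tested genes had medians of 0.05, -0.03 and 0.41 in the same order. Of these 3882 genes 2115, 1822 and 3360 were higher in old cells, and of all 15526 tested genes 8330, 7871 and 9426. After cyclic loess the member medians were 0.22, 0.03 and 0.11 in the same order, and after quantile normalization 0.22, 0.03 and 0.13. With the array medians of the tested genes set equal they were 0.16, 0.04 and 0.27, so the order of quiescent and PRI-724 cells depended on the scaling.

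In quiescent cells the age medians were 0.30 for complex I, 0.18 for II, 0.15 for III and 0.23 for IV. In vehicle cells they were 0.05, 0.04, -0.06 and -0.05. Ndufs8, a core subunit with iron-sulphur clusters, was the 1 member at least 1.5-fold higher in old cells in every state, where 1.08% of tested genes were. It stood at 7.54, 8.30 and 8.14 in young quiescent, vehicle and PRI-724 cells and at 8.52, 8.89 and 9.18 in the old. Old cells were higher by 0.98, 0.59 and 1.03, with a fitted difference of 0.87 ± 0.22 (n = 3 pairs, adjusted p = 0.17). Ndufa11, whose promoter is shown above, was higher by 0.49, 0.50 and 1.15 (0.71 ± 0.24, adjusted p = 0.32). A second, dimmer probe set of Ndufa11 differed by -0.13, 0.47 and -0.10, so its age difference is uncertain. The hepatocyte markers were also higher in old cells: 9 of 9 had a positive difference and 4 rose, and on the quiescent arrays their mean was 6.43 in young and 9.38 in old cells. The myofibroblast markers were higher in old cells in 6 of 6 genes, with a median of 1.18, and 1 rose. Their mean on the quiescent arrays was 6.25 in young and 7.20 in old cells. The part of these cell types in the age differences of the subunits was not tested.

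Other genes of oxidative metabolism were taken from lists. For comparison, 4.61% of all tested genes rose with activation, and their median difference was 0.04, or 0.16 for the brightest. The calls depend on the scaling. Of all tested genes 716 rose as deposited, 338 after cyclic loess and 246 after quantile normalization, and no subunit call remained under either. The list calls below are for the deposited values with all arrays, and their dependence on scaling or single arrays is not given here. With activation 1 of 15 ATP synthase genes rose, Atp5d of the rotor stalk, by 1.31 ± 0.30 (adjusted p = 0.035), and the median of the list was 0.55. Of 7 other electron carrier genes 1 rose, Etfb, a subunit of the electron transfer flavoprotein of fatty acid oxidation, by 1.52 ± 0.31 (adjusted p = 0.022). Of 13 complex I assembly genes 2 rose: Tmem126b by 1.54 ± 0.37 and Ndufaf7, a methyltransferase, by 1.03 ± 0.26 (adjusted p = 0.041 and 0.049). Of 24 assembly genes for complexes II to IV 2 rose, both for complex IV: Cox20 by 1.66 ± 0.38 and Coa3 by 1.18 ± 0.27 (both adjusted p = 0.036). None of the 15 citric acid cycle genes was called, and 15 had a positive difference, with a median of 0.50. Pdha1, a subunit of pyruvate dehydrogenase, was highest at 1.12 ± 0.32 (adjusted p = 0.075). Of 9 coenzyme Q synthesis genes 0 were called, with a median of 0.35 and the smallest adjusted p in Coq3 (0.063).

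The known regulators of mitochondrial biogenesis did not share this direction. Of 11 genes 0 were called with activation, and 7 were lower, with a median of -0.10. Pprc1, a coactivator of the PGC-1 family, differed by -0.64 ± 0.29, the GABP subunit gene Gabpa by -0.36 ± 0.29, and Tfb1m, a mitochondrial ribosomal RNA methyltransferase, by 0.63 ± 0.30. With PRI-724 against vehicle, 0 genes of these 7 lists were called in either direction, and the same held for old against young. The lowest with PRI-724 was Surf1, a complex IV assembly factor, at -1.38 in young and -0.77 in old cells (-1.07 ± 0.29, adjusted p = 0.10).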

How the data were processed

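Per the labels, RNA of 6 pooled stellate cell samples was extracted with RNeasy columns, labelled with the GeneChip WT PLUS kit and hybridised to 1 Affymetrix array each. The deposited values are log2 signals per probe set, made by the authors with Affymetrix Expression Console and RMA, per the submitters' processing notes, with versions not given in the sources used here.

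Of 41345 probe sets 23521 carried 1 gene symbol, 1814 several and 16010 none. Each gene was taken at its brightest single-symbol probe set (22180 genes), and the dimmest 30% were left out. Differences were fitted in limma 3.58.1 (R 4.3.3) on age and state over all 6 arrays, with variances moderated along the intensity (degrees of freedom were 2 residual and 7.76 prior). Benjamini-Hochberg adjustment ran over 15526 genes, with a threshold of 0.05. They measure only the spread between these samples. The fit was also run on simulated data with independent noise and no array-wide shift, so that run does not bear on the differences between these arrays. A gene counted in both pairs when its difference had the same sign at both ages.

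The members and lists, and the rule for named genes (members past the threshold, the 2 highest and 2 lowest of each complex, the tissue forms, and leading list genes), were chosen with earlier results of these data known. Ndufs8, Ndufa11, Cox5a, the core genes and several-symbol sets were chosen after their values were seen. Motifs were searched and figures drawn in Python 3.11.15 with pandas 2.3.3 and matplotlib 3.10.9.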

Additional observations from a re-analysis of the deposited data

Results flagged for a closer look

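Some members moved to opposite sides of 0, by at least 0.5 log2 units, in pairs that share a contrast. None of these differences between pairs was tested, since each rests on single arrays. Cox5a, a subunit of complex IV, differed between PRI-724 and vehicle cells by -0.592 in young and 0.539 in old cells. Ndufs5 of complex I differed between PRI-724 and quiescent cells by 0.503 in young and -0.517 in old cells. The set shared by Ndufs5 and Ndufs5-ps differed there by 0.137 and 0.192, so the opposite directions of Ndufs5 are uncertain. Cox7b of complex IV was higher in old than in young cells by 0.982 in the quiescent state and differed by -0.562 in vehicle cells.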

How the results depend on the processing

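With 1 array per age and state, calls near the threshold turned on single settings, while the median over the 58 genes kept its sign under every alternative run, except PRI-724 against vehicle, where it was 0.03 after quantile normalization and 0.001 with the array medians set equal. The 3 members called with activation (911 of 15526 tested genes) became 5 with the dimmest 50% of genes left out (840 of 11090). They became 0 without age in the model (114 of 15526 tested genes) and with only the arrays of the states compared (481). After cyclic loess (482) and quantile normalization (331) they were also 0. Leaving out 1 array leaves a lone array in a state, so only medians are given here for those fits. The activation median of 0.62 was 0.41 after cyclic loess, 0.37 with the array medians set equal and 0.44 to 0.78 with an array left out. Members at least 1.5-fold higher in both pairs fell from 22 to 10 after cyclic loess, quantile normalization or setting the array medians equal, settings chosen after seeing the data. Over all tested genes the share fell from 11.4% to 7.92%, 7.66% and 6.3% in the same order. For PRI-724 against vehicle, 0 calls (341 of 15526 tested genes) became 1 (Ndufa4l2) with only the arrays compared (965). With an array left out the median ran from -0.39 to -0.02. For PRI-724 against quiescent, 2 calls (577 of 15526 tested genes) became 1 without a filter (519 of 22180) or without an intensity trend (545 of 15526). They became 0 without age in the model (217). With an array left out the median ran from 0.21 to 0.57. For old against young the median was 0.13 to 0.33 with an array left out. Ndufa4l2 met the mean signal of 5 only through the young vehicle array, so its call supports nothing. The labels number no replicates. The states are paired by age, which is in the model, and the fit without that block called 0 members in each state comparison. Over all 15526 tested genes that fit called 114 with activation, 91 for PRI-724 against vehicle and 217 for PRI-724 against quiescent.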

Other observations

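Because Ndufa4l2 is a known HIF-1 target, 8 other genes known to respond to low oxygen were looked up after its values were seen, and this choice supports nothing by itself. The vehicle minus quiescent difference was larger in the young than in the old pair for 8 of 8. Egln3, an oxygen-sensing hydroxylase, differed by 2.71 in young and -0.27 in old cells. Pdk1, which restrains pyruvate dehydrogenase, differed by 1.99 and 0.53. Bnip3, a receptor for the removal of mitochondria, differed by 1.59 and 0.53. Ldha, lactate dehydrogenase, rose by 1.25 ± 0.30 (limma, adjusted p = 0.041), with 1.55 and 0.95 in the young and old pair. The other genes looked up differed less in the young pair. Vegfa differed by 0.97 and -0.63, Pgk1 by 0.62 and 0.32, Slc2a1 by 0.51 and -0.32, and Car9 by 0.24 and 0.11. For comparison, 42 of the 58 respiratory chain members also had their larger difference in the young pair. The same count was not made over all tested genes, whose medians were 0.04 in young and 0.05 in old cells. The difference between the ages was not tested.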
